A study of Mus musculus with 17 samples.

Results

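The 8 genes described here, Myc, Mycn, Max, Mga, Mxd1, Mxd3, Mxi1 and Mnt, are core members of the Myc and Max network, a set of transcription factors that meet on the same DNA sequence through a common partner. They were chosen by gene symbol, with earlier results of these data known, from 23891 symbols in RNA-seq tables of 17 mouse samples. Where a gene had several RefSeq transcripts, the one with the highest mean over the samples stands for it, and the 8 genes have 13 transcripts of 32661 in all. All 8 genes had a level in each sample that Cufflinks, the program that made the values, marked as a successful estimate.

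The samples were 4 lines of spermatogonial stem and progenitor cells (SSCs), 6 lines of multipotent adult spermatogonial-derived stem cells (MASCs), 2 embryonic stem cell (ESC) lines, 2 induced pluripotent stem (iPS) cell lines, 2 cultures of haematopoietic stem and progenitor cells (HSCs) and 1 sample of mouse embryonic fibroblasts (MEFs). SSCs came from mice over 3 months old and grew on MEF feeder cells with GDNF, bFGF and EGF, and floating cells were collected after plating on gelatin to leave feeder cells behind. The SSC lines were Oct4-GFP (lines 1 and 2), C57Bl/6J (line 3) and 129mix (line 4). MASCs arise from SSCs in long-term culture. The MASC lines were Oct4-GFP (lines 1 and 2), 129mix (lines 3 and 4) and Gt(ROSA26)Sor-lacZ (lines 5 and 6), ESC line 1 was Oct4-GFP and ESC line 2 was 129mix, and all grew on MEF feeders with LIF. Both iPS lines were 129mix and were made from fibroblasts of E13.5 embryos (tetO-4F2A crossed to H3.3B-HA), which carry a polycistronic cassette with coding sequences of Oct4, Sox2, Klf4 and Myc, switched on with doxycycline at 2 µg per ml. A read from the coding sequence of Myc cannot be assigned to the cassette or to the gene itself with these values. HSCs were C57Bl/6J bone marrow cells depleted of lineage-marked cells and grown on human E4ORF1 endothelial feeder cells with Kit ligand, and the MEF sample, from E13.5 embryos that carry H3.3B-HA, was 129mix.

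Max is a small protein with a basic helix-loop-helix and leucine zipper that has no activation domain of its own. Myc and Mycn each pair with Max, bind the sequence CACGTG (the E-box) and activate genes of growth, whereas Mxd1, Mxd3, Mxi1 and Mnt pair with Max at the same sequence and bring in the Sin3 co-repressor with its histone deacetylases. Mga also pairs with Max, carries a T-box besides, and belongs to a Polycomb complex (PRC1.6) that is known to hold germ cell genes silent in ESCs. Mycn and Myc support the self-renewal of ESCs and take part in that of spermatogonia and blood progenitors.

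The start of each gene was read on mm9, the build of the files, for the 7 genes with a window in the RefSeq promoter table, which are all but Myc. The E-box, the letters CACGTG, which read the same on both strands, was searched in the 300 bases around the start, 250 before it and 50 from it. It was found in 2349 of 32851 RefSeq windows (7.15%, build GRCm38.p6) and in 2 of the 9 windows of these 7 genes, those of Max and Mnt. Below, 130 bases before the start and 30 from it are shown for Max, the shared partner, for Mnt, and for 2 of the start sites of Mxi1, whose transcripts are described separately. Capitals mark the E-box.
Max, chr12:78063206-78063365, minus strand: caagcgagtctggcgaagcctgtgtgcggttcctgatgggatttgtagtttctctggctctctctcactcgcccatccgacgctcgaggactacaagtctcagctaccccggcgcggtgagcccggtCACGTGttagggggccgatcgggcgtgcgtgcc
Mnt, chr11:74644296-74644455, plus strand: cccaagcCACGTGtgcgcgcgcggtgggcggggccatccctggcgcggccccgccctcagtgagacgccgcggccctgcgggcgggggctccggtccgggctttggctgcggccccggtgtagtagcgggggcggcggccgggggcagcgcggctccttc
Mxi1, upstream start (NM_001008542), chr19:53384866-53385025, plus strand: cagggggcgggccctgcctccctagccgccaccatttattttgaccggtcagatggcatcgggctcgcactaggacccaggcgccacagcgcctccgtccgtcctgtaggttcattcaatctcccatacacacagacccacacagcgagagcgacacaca
Mxi1, downstream start (NM_010847), chr19:53403773-53403932, plus strand: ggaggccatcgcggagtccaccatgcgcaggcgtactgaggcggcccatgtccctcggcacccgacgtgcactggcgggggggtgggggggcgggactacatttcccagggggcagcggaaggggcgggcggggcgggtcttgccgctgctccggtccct
The E-box of Max lies across the start itself, with its first base 3 bases before it, and that of Mnt begins 123 bases before the start. These windows equal the RefSeq windows base for base. A match of letters is a description and not a bound site.

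Levels are FPKM, fragments mapped to a transcript scaled to its length and to the library, as the authors deposited them. The scaling to the library was by upper quartile, with GC-normalization. Differences are given in log2(FPKM + 1), a scale on which changes of low genes are understated, with their standard error (SE). Cell types were compared with limma, and a transcript was called where its Benjamini-Hochberg adjusted p over all 32661 transcripts was under 0.05. These p-values measure the spread between the lines at hand, since no source says how far lines of a group share an origin. In such bulk RNA, fewer cells of a type and less RNA per cell cannot be told apart.

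Read counts were not among the values. Beside each FPKM stand the authors' confidence bounds from Cufflinks, such as 32.2 and 34.4 around the 33.3 FPKM of Mycn in MASC line 1. They cover the estimate within a library and not the spread between lines. The coverage of Cufflinks at 1 FPKM was between 1.26 and 3.23 reads per base, and 13532 to 16272 transcripts per sample were at 1 FPKM or above. The cell types carried their markers. The summed FPKM of 7 pluripotency genes was 1800 to 2972 in MASCs, ESCs and iPS cells, 22.9 to 129 in SSCs and 1.48 to 2.90 in HSCs. That of 8 spermatogonial genes was 695 to 822 in SSCs and 15.4 to 45.6 in MASCs. The sum of 9 haematopoietic genes was 1187 to 1564 in HSCs, 149 in the MEF sample and at most 25.5 elsewhere. The sum of 10 fibroblast genes was 7388 in MEFs, 972 in MASC line 1 (35.4 to 132 in the other MASC lines), 884 in SSC line 3 (7.06 to 353 in the other SSC lines), 408 and 88.6 in the ESC lines and 24.9 and 404 in the HSC cultures. The sum of 5 endothelial genes was 57.8 and 68.5 in HSCs and at most 20.9 elsewhere.

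Between SSCs and MASCs, the question is which genes differ between unipotent lines and the multipotent lines that arise from such cells. SSCs grew with GDNF, bFGF and EGF, and MASCs and ESCs in another medium with LIF. Cell type and medium therefore cannot be told apart. Myc, Mycn and Max were higher in MASCs, and the Myc antagonists Mxi1 and Mxd1 were lower. Mga, Mxd3 and Mnt did not pass the test. Thus 5 of the 8 genes were called (62.5%), where 30.9% of all transcripts were called. Among the 18757 transcripts with at least 1 FPKM in at least 2 samples, a filter that all 8 genes passed, 49.9% were called, and 5 of the 8 were called there too. Of the 8, 3 were higher, beside 11.4% of transcripts, and 2 were lower, beside 19.5%. With the filter, 9359 transcripts were called, of which 39.4% were higher. The median log2 difference of the 8 genes was 0.08, beside -0.01 over all transcripts. It was -0.12 over the 20119 transcripts with at least 1 FPKM in at least 2 of the 17 samples. The lines of both groups did not overlap for 4 of the 8 genes, Myc, Max, Mxd1 and Mxi1, against 25.3% of all transcripts. The rule of the study's methods was read here as an unadjusted p under 0.05 and a log2 difference of 2 or more, and 1 of the 8 genes passed it, Myc, against 4.01% of transcripts. With a log2 difference of at least 1, a reading added after seeing the data, Myc, Max and Mxi1 passed (3 of 8), against 16.7%. Of the called transcripts 37% were higher in MASCs, and 24.6% were when FPKM were rescaled to an equal sum per sample.

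**Figure D1:**
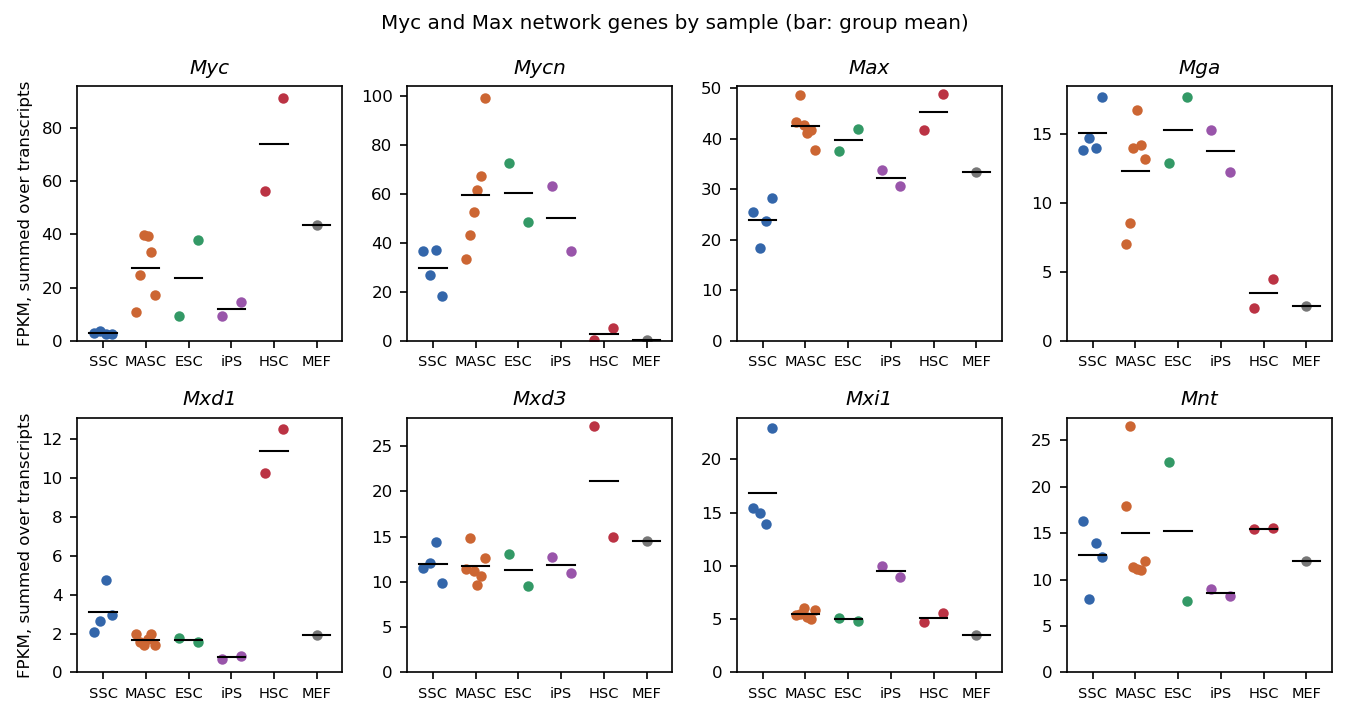
FPKM of each gene, summed over its RefSeq transcripts, in each of the 17 samples. Points are samples in order of their replicate number, the horizontal bar is the group mean, and each vertical axis starts at 0. The 4 SSC lines lie between 2.50 and 3.81 for Myc, below every other sample, and HSCs and MEFs lie lowest for Mycn.

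Myc (chr15:61816896-61821916) has a pair of nearly equal RefSeq transcripts over the same span, of 2399 and 2396 bases, between which Cufflinks had to divide the reads. Summed over both, Myc was at 2.97, 3.81, 2.64 and 2.50 FPKM in SSC lines 1 to 4. In MASCs it ran from 10.8 to 39.9 with a median of 29.0, in ESCs it was 9.37 and 38.1, and in iPS cells it was 9.19 and 14.6. Every SSC line was below every MASC, ESC and iPS line, and SSCs varied little among themselves. HSCs, at 56.3 and 91.3 FPKM, and MEFs, at 43.5, were above all of them. MASC line 1, with the most fibroblast marker RNA of its group, had the lowest Myc of the MASC lines, and SSC line 3 lay within the range of the other SSC lines.

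The higher Myc transcript, NM_001177352, differed by 2.81 (SE 0.59) between MASCs and SSCs, with an adjusted p of 0.00509. In SSC line 3 it was listed at 0.00343 FPKM, while the other transcript, NM_001177353, was at 2.64 there. The reverse held in SSC line 4, where the main transcript was at 2.50 and the other at 0.000255. With both transcripts summed the difference was 2.72 (SE 0.44, adjusted p = 0.000989). Within the Oct4-GFP lines the main transcript differed by 1.83 (2 lines against 2) and within the 129mix lines by 3.07 (2 lines against 1), values without a test. Leaving out MASC line 1 and SSC line 3 together, which was chosen after seeing the data, gave 2.64 (adjusted p = 0.00553).

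Mycn (chr12:12942899-12948642, 1 transcript), the form of Myc best known from neural and early embryonic cells, was the more abundant of the pair in all germline-derived and pluripotent lines. SSC lines 1 to 4 had 36.6, 27.0, 37.1 and 18.5 FPKM. MASCs ran from 33.3 to 99.2 with a median of 57.1, ESCs had 72.7 and 48.6, and iPS cells had 63.4 and 36.9. The SSC and MASC ranges overlapped: MASC line 1 lay below SSC lines 1 and 3. The difference of 0.94 (SE 0.31) had an adjusted p of 0.0445, the weakest of the 5 calls. It was lost when any of 8 of the 10 lines was left out in turn, namely SSC lines 1 to 4 or MASC lines 3 to 6, with adjusted p between 0.0502 and 0.126, and also when FPKM were rescaled (0.64, adjusted p = 0.156) or strain was a term (0.81, adjusted p = 0.123). Within the Oct4-GFP lines Mycn differed by 0.26 and within the 129mix lines by 1.57.

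The share of Myc in the sum of Myc and Mycn was 6.65% to 12.3% in SSCs and 14.7% to 43.2% in MASCs. Mycl, a further Myc form outside this sum, was at 16.4, 8.89, 10.6 and 36.5 FPKM in SSC lines 1 to 4. It was above Myc in each of them and above Mycn in line 4. ESC line 1 had 11.4%, inside the range of SSCs, and ESC line 2 had 43.9%. The ESC lines were alike in the sum of Myc and Mycn, at 82.0 and 86.7 FPKM, and unlike in its makeup. In MASCs line 6 stood out in the same way, with the highest Mycn of all samples and a Myc of 17.1 FPKM. HSCs, at 99.4% and 94.4%, and MEFs, at 99.3%, had almost Myc alone.

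Max (chr12:78038256-78063235), the obligate partner, was higher in MASCs by its main transcript. NM_001146176, of 1978 bases, was at 12.2, 10.5, 8.92 and 11.96 FPKM in SSC lines 1 to 4 and ran from 23.5 to 33.2 in MASCs, with a median of 25.3. No SSC line reached the lowest MASC line. ESCs had 25.8 and 20.1, iPS cells 23.1 and 22.5, HSCs 25.1 and 32.03, and MEFs 24.9, so that SSCs were apart from every other cell type and the rest overlapped or lay next to each other. The difference of 1.22 (SE 0.13) had an adjusted p of 7.64e-05.

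The other Max transcript, NM_008558, of 2005 bases, did not pass the test between MASCs and SSCs. It was at 13.4, 7.85, 14.7 and 16.3 FPKM in SSC lines and 10.1 to 19.2 in MASC lines, with a median of 17.9. The difference was 0.26 (SE 0.27, adjusted p = 0.553, 95% interval -0.35 to 0.87). Its share of all Max was 42.7% to 62.3% in SSCs and 23.3% to 44.6% in MASCs, ranges that overlap only through SSC line 2. Both Max transcripts cover the same span and are of similar length, so Cufflinks had to divide reads between them, as for Myc. Whether the transcripts differed from each other in their change was not tested. With both transcripts summed, Max was 18.4 to 28.3 FPKM in SSCs and 37.8 to 48.7 in MASCs, a difference of 0.82 (SE 0.11, adjusted p = 0.000293).

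**Figure D2:**
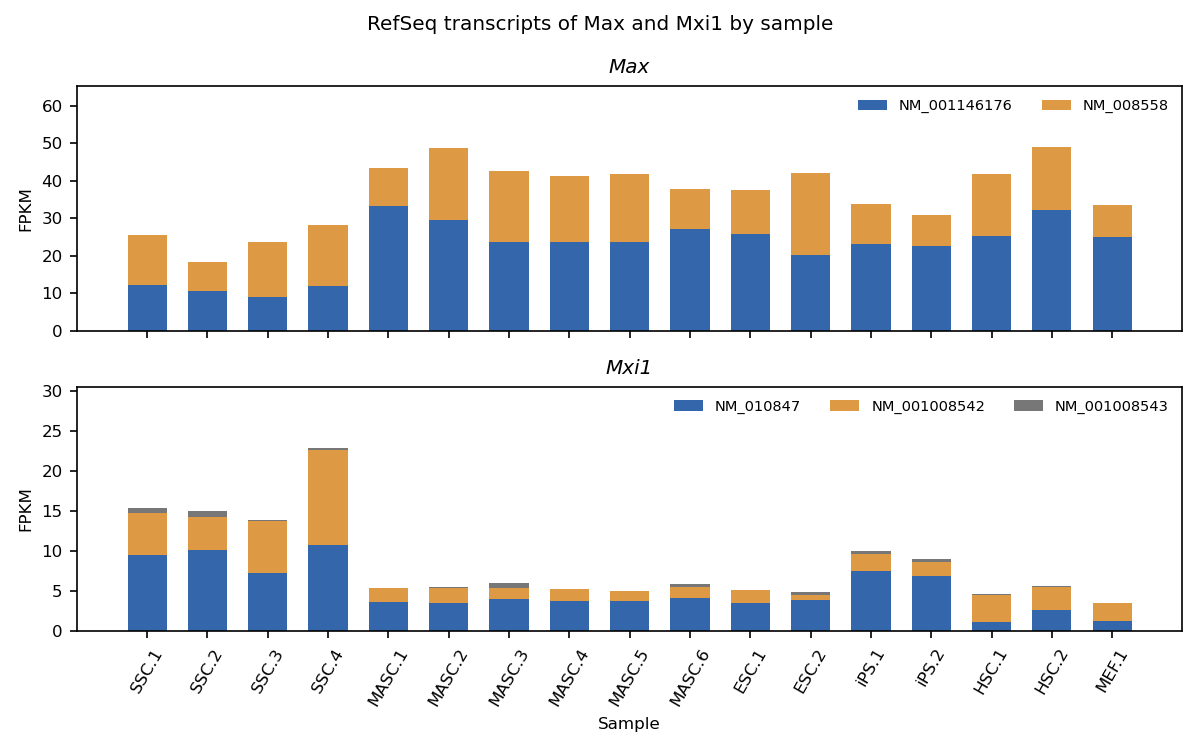
FPKM of each RefSeq transcript of Max (top) and Mxi1 (bottom) in each of the 17 samples, stacked. In SSCs the NM_008558 part of Max is 42.7% to 62.3% of the bar, and the Mxi1 bars are 13.9 to 22.9 FPKM, above all other samples.

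Mxi1 (chr19:53384996-53450300), an Mxd-type repressor that competes with Myc for Max, was lower in MASCs, with the smallest spread of the 5 calls. Its main transcript NM_010847 was at 9.48, 10.2, 7.32 and 10.8 FPKM in SSC lines 1 to 4 and at 3.56 to 4.13 in MASCs, with a median of 3.78. ESCs had 3.45 and 3.91, in and just below the range of MASCs, iPS cells had 7.49 and 6.91, HSCs 1.11 and 2.69, and MEFs 1.23. The difference between MASCs and SSCs was -1.11 (SE 0.09, adjusted p = 1.61e-05), and it was -1.24 within Oct4-GFP and -1.28 within 129mix lines.

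NM_001008542, which begins at the upstream start shown above, was lower in MASCs as well. It was at 5.27, 4.14, 6.50 and 11.9 FPKM in SSC lines and 1.25 to 1.88 in MASCs, with a median of 1.45, a difference of -1.58 (SE 0.24, adjusted p = 0.000841). SSC line 4 was far above the other SSC lines for this transcript but not for NM_010847. The remaining transcript, NM_001008543, was under 1 FPKM in every sample and did not pass the test (-0.27, adjusted p = 0.339).

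Mxd1 (chr6:86597039-86619153), a repressor that rises as blood and epithelial cells mature, was low in all germline-derived and pluripotent lines. It was at 2.10, 2.67, 4.74 and 2.94 FPKM in SSC lines 1 to 4 and 1.39 to 1.99 in MASCs, with a median of 1.64. The highest MASC line, line 1, and the lowest SSC line, line 1, were close to each other without overlapping. The difference was -0.59 (SE 0.15, adjusted p = 0.0148), and it was -0.32 (adjusted p = 0.142) under quantile normalization and -0.42 (adjusted p = 0.0514) with strain as a term. ESCs had 1.78 and 1.58, iPS cells 0.692 and 0.852, and MEFs 1.93.

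Mxd3 (chr13:55426529-55431091), the Mxd form found in dividing cells, had the narrowest range for its level of the 8 genes outside HSCs. It was at 11.6, 12.1, 14.4 and 9.91 FPKM in SSC lines and 9.60 to 14.9 in MASCs, with a median of 11.3, and ESCs, iPS cells and MEFs were between 9.52 and 14.5. The groups overlapped fully. The difference between MASCs and SSCs was -0.03 (SE 0.13, adjusted p = 0.979, 95% interval -0.33 to 0.27). It was -0.33 (adjusted p = 0.0316) when FPKM were rescaled.

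Mnt (chr11:74644426-74659227), the most widely expressed Max-binding repressor, differed more within groups than between them. SSC lines 1 to 4 had 16.3, 7.91, 13.98 and 12.5 FPKM, MASCs ran from 11.1 to 26.5 with a median of 11.7, and the difference of 0.19 (SE 0.35) had an adjusted p of 0.77. Among MASCs and ESCs, the 3 Oct4-GFP lines had 17.9, 26.5 and 22.7 and the other 5 lines 7.72 to 12.01. SSCs did not split in this way, since Oct4-GFP SSC line 1 had the highest and line 2 the lowest value. Within Oct4-GFP lines MASCs were higher by 0.88 and within 129mix lines they differed by -0.14, and the difference between these effects was not tested.

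Mga (chr2:119722964-119795317) did not pass the test between MASCs and SSCs. Its main transcript NM_013720 was at 13.2, 13.4, 12.9 and 15.0 FPKM in SSC lines and 5.84 to 13.9 in MASCs, with a median of 10.0. Only MASC line 4 reached the SSC range, and the Oct4-GFP MASC lines 1 and 2 were lowest, at 5.84 and 7.65. The difference of -0.48 (SE 0.20) had an adjusted p of 0.0934, which was 0.0286 with strain as a term (-0.63), 0.0308 with rescaled FPKM (-0.81), 0.0352 without MASC line 4 (-0.58) and 0.318 with both transcripts summed (-0.32). ESCs had 11.9 and 15.8 and iPS cells 13.1 and 11.03.

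**Figure D3:**
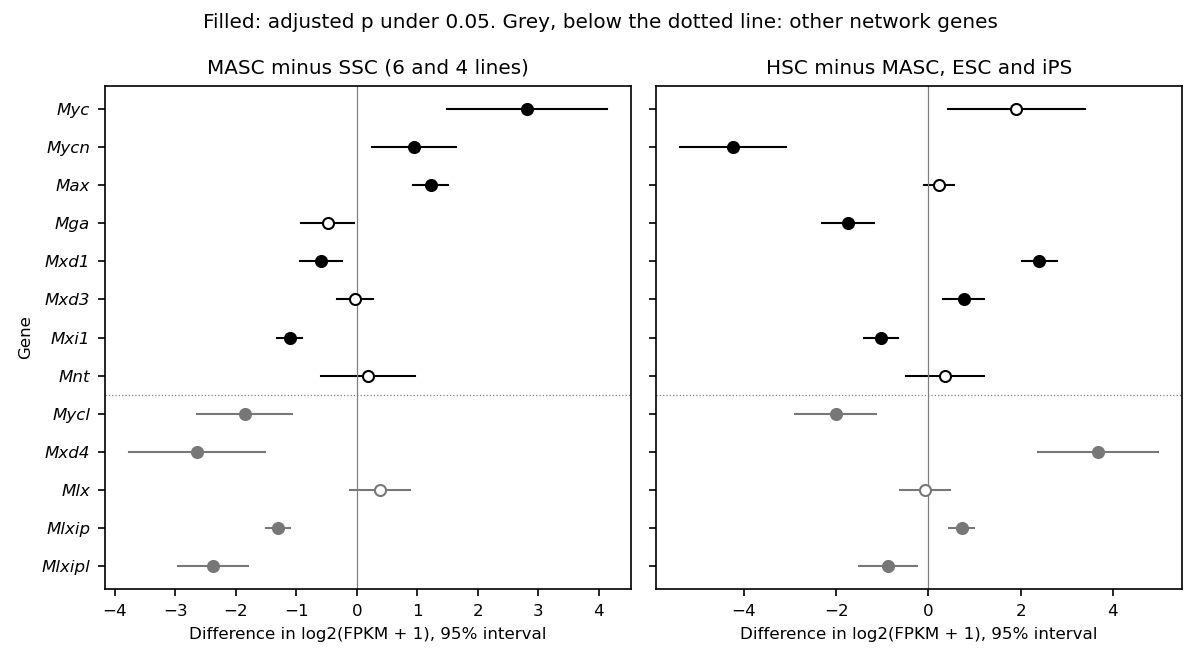
Difference in log2(FPKM + 1) of the 8 genes (black) and 5 further network genes (grey), with 95% intervals, for MASCs against SSCs (left) and HSCs against the mean of MASCs, ESCs and iPS cells (right). Filled points passed an adjusted p of 0.05. Mycn is at 0.94 on the left and -4.24 on the right, Mxd1 at -0.59 and 2.41.

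ESCs were set against the same SSC lines, so this comparison shares samples with the one above. Myc and Max were higher in ESCs and Mxi1 was lower. Called were 3 of the 8 (37.5%), beside 21.4% of all transcripts and 37.5% of those with at least 1 FPKM in at least 2 samples, a share equal to that of the 8 genes. Myc (2.50, SE 0.79, adjusted p = 0.0497) and Max (1.01, SE 0.17, adjusted p = 0.00246) were higher in ESCs, and Mxi1 (-1.15, SE 0.12, adjusted p = 0.000164) was lower. Of all transcripts 7.67% were higher and 13.8% lower. The median of the 8 was 0.06, beside -0.01 over all transcripts. It was -0.15 over the 20119 transcripts with at least 1 FPKM in at least 2 of the 17 samples. The Myc call rested on ESC line 2, without which the difference was 1.47 (adjusted p = 0.407), and it was also lost without any single SSC line (adjusted p 0.0605 to 0.0871). With its transcripts summed Myc differed by 2.35 (adjusted p = 0.0161). Mycn (1.02, adjusted p = 0.12) and Mxd1 (-0.58, adjusted p = 0.075) did not pass, and Mga was at 0.01 (SE 0.26). Of the called transcripts 35.8% were higher in ESCs, 46.7% under quantile normalization and 23.1% with rescaled FPKM.

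Between ESCs and MASCs limma called 0 of the 8 genes and 0 of the 8 had a raw p under 0.05, beside 0.0306% of transcripts called. The 95% intervals of the difference, ESCs minus MASCs, were -0.29 to 0.21 for Mxi1, -0.42 to 0.45 for Mxd1, -0.44 to 0.32 for Mxd3 and -0.57 to 0.15 for Max. They were wider for Mycn (-0.80 to 0.96), Mnt (-1.06 to 0.90) and Myc (-1.98 to 1.35), in which the ESC lines differed from each other. For Mga the interval was -0.06 to 1.04.

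Between iPS cells and ESCs, 2 lines against 2, limma called 0 of the 8 genes, beside 0.309% of transcripts. Of the 8, 2 had a raw p under 0.05: Mxi1 was at 6.91 and 7.49 FPKM in iPS cells against 3.45 and 3.91 in ESCs (0.81, SE 0.21, adjusted p = 0.186), and Mxd1 differed by -0.60 (SE 0.22, adjusted p = 0.467). Under quantile normalization Mxi1 was called (0.81, adjusted p = 0.0494). Myc, a gene of the cassette, did not pass the test: its difference was -0.64 (SE 0.86, 95% interval -2.52 to 1.25), and of its summed levels, 9.19 and 14.6 FPKM, 1 lay just below and 1 between those of the ESC lines, 9.37 and 38.1. Whether the cassette added to these levels was not tested.

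HSCs differed from the pluripotent lines in the level of Mycn and in those of several partners of Max. Both HSC cultures were C57Bl/6J, a strain of no MASC, ESC or iPS line, and grew with Kit ligand on human endothelial feeder cells. Cell type, strain, medium and feeder cells therefore cannot be told apart in this comparison. Against the mean of the MASC, ESC and iPS group means, 5 of the 8 genes were called (62.5%, beside 33.3% of all transcripts). Among the 20119 transcripts with at least 1 FPKM in at least 2 samples 50.8% were called, and 6 of the 8 genes, with Myc added. Mxd1 and Mxd3 were higher, beside 15.9% of transcripts, and Mycn, Mga and Mxi1 were lower, beside 17.4%. The median of the 8 was 0.30, beside -0.003 over all transcripts and -0.19 over those 20119. The HSC cultures lay outside the range of the other lines for 6 of the 8 genes, against 35.7% of transcripts, and 2 of the 8, Mycn and Mxd1, passed the rule of the methods, against 8.6%. With a log2 difference of at least 1, Myc, Mga and Mxi1 passed as well (5 of 8), against 23% of transcripts.

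Mycn was at 0.345 and 5.40 FPKM in the HSC cultures, against 33.3 or more in all pluripotent lines, a difference of -4.24 (SE 0.52, adjusted p = 5.89e-05). HSC culture 2, with the higher Mycn, also had the higher sum of fibroblast genes, and MEFs had 0.310 FPKM of Mycn. Without it the difference was -5.37, and without culture 1 it was -3.12. Myc was above all pluripotent lines in both HSC cultures, but its main transcript missed the threshold (1.91, SE 0.68, adjusted p = 0.0501), and with both transcripts summed it was called (1.95, SE 0.52, adjusted p = 0.0101). The sum of Myc and Mycn, at 56.6 and 96.7 FPKM in HSCs, lay within the range of the pluripotent lines, 44.1 to 116.

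Mxd1 was at 10.3 and 12.5 FPKM in HSCs against at most 1.99 in the pluripotent lines, a difference of 2.41 (SE 0.18, adjusted p = 7.55e-07). No other sample had more than 4.74. For Mxd3 the cultures differed: 27.3 FPKM in culture 1 and 15.0 in culture 2, just above the highest pluripotent line at 14.9. Its difference of 0.76 (SE 0.20, adjusted p = 0.0121) rested on culture 1, without which it was 0.35 (adjusted p = 0.278). Mnt, at 15.4 and 15.5, and Max did not pass (0.37, adjusted p = 0.56, and 0.23, adjusted p = 0.29).

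Mga was at 1.84 and 3.99 FPKM in HSCs and 2.20 in MEFs, below each of the pluripotent lines and SSCs, a difference of -1.74 (SE 0.26, adjusted p = 0.000243). Of the Mxi1 transcripts, NM_010847 was called and NM_001008542 was not, and the difference between them was not tested. NM_010847 differed by -1.03 (SE 0.17, adjusted p = 0.00048), and NM_001008542, from the upstream start, was at 3.46 and 2.87 FPKM in HSCs against 0.588 to 2.17 in pluripotent lines and differed by 0.74 (SE 0.27, adjusted p = 0.0564). The upstream transcript made up 73.9% and 51.2% of Mxi1 in HSCs, 65.2% in MEFs, 12.1% to 34.0% in pluripotent lines and 34.1%, 27.6%, 46.7% and 51.7% in SSC lines 1 to 4. SSC line 4 was thus above HSC culture 2. Summed over its transcripts, Mxi1 did not pass (-0.28, adjusted p = 0.145), with 4.68 and 5.61 FPKM in HSCs.

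**Figure D4:**
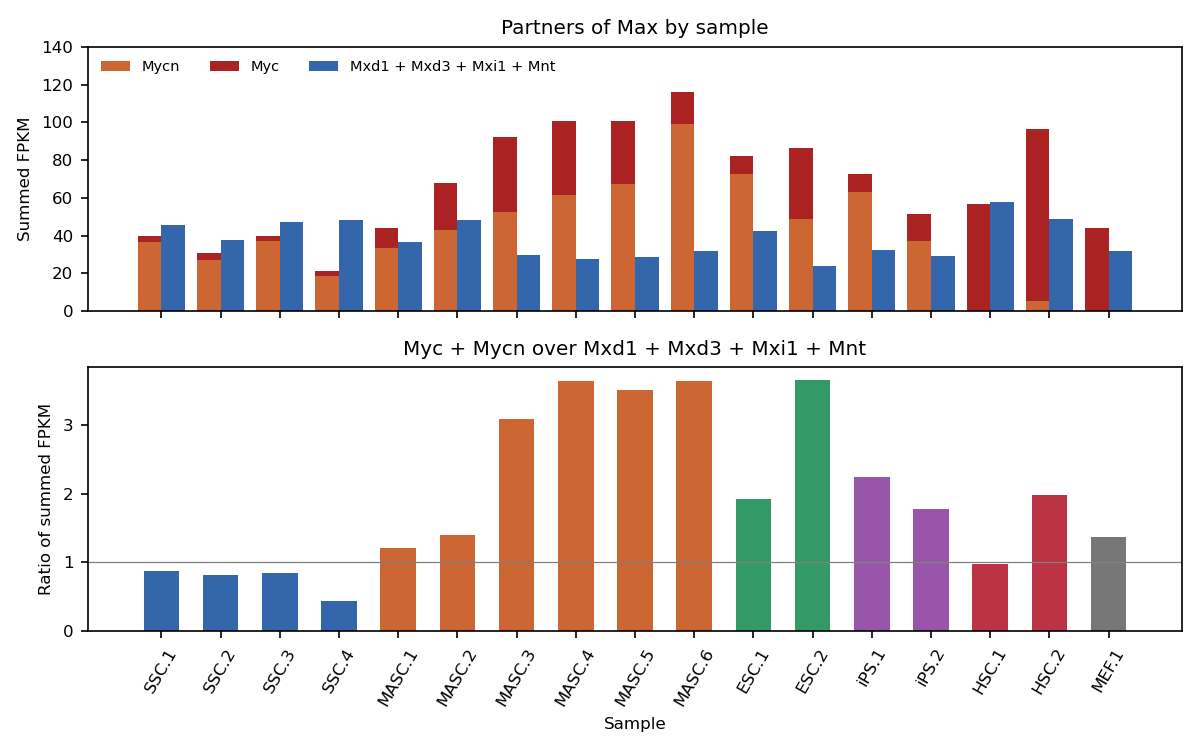
Top, summed FPKM of Mycn and Myc (stacked) beside that of the repressors Mxd1, Mxd3, Mxi1 and Mnt in each sample. Mycl and Mxd4 are not in these sums. Bottom, the ratio of these sums, with a line at 1. For the genes summed, the ratio is 0.436 to 0.872 in SSCs and above 1 in every MASC, ESC and iPS line.

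As a description, the FPKM of Myc and Mycn were summed and set against the sum of the repressors Mxd1, Mxd3, Mxi1 and Mnt, FPKM being levels per length. Mycl and Mxd4, a further Mxd form, were left out of these sums. Mxd4 was at 18.5 to 38.5 FPKM in SSCs, 1.74 to 13.3 in MASCs and 48.9 and 49.5 in HSCs. Mycl was at 8.89 to 36.5 FPKM in SSCs and 2.74 to 6.06 in MASCs. A ratio that includes them was not computed. The ratio was 0.872, 0.820, 0.845 and 0.436 in SSC lines 1 to 4 and ran from 1.20 to 3.65 in MASCs, with a median of 3.30. The Oct4-GFP MASC lines, at 1.20 and 1.40, were apart from the other 4, at 3.09 or more. MASC line 1, at 1.20, also had the highest Mxd4 of the MASC lines, 13.3 FPKM. A place above or below 1 is therefore shown for the genes summed only. ESCs had 1.92, in the Oct4-GFP line, and 3.66, in the 129mix line. The ratio was 2.24 and 1.77 in iPS cells, 0.982 and 1.99 in HSCs and 1.37 in MEFs. The repressor sum alone was 37.6 to 48.3 FPKM in SSCs, 27.7 to 48.5 in MASCs and 57.6 and 48.7 in HSCs. RNA levels do not give the levels of the proteins.

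The 5 further genes of the network were lower in MASCs than in SSCs in 4 cases, and 0 were higher. Over all transcripts 19.5% were lower and 11.4% higher. Among transcripts with at least 1 FPKM in at least 2 samples 49.9% were called in either direction. For HSCs against pluripotent lines these shares were 17.4%, 15.9% and 50.8%. They stand beside the list counts that follow. Mxd4, the Mxd form of resting cells, had means of 30.3 FPKM in SSCs and 4.79 in MASCs (-2.64, SE 0.50, adjusted p = 0.00295), and Mlxipl, a glucose-responsive partner of Mlx, had 7.57 and 0.594 (-2.37, SE 0.26, adjusted p = 0.000101). Mycl, a further Myc form (-1.85, adjusted p = 0.00292), and Mlxip (-1.30, adjusted p = 5.63e-06) were lower too, and Mlx, the Max-like hub, did not pass (0.38, adjusted p = 0.243). The median of the 5 was -1.85. In HSCs Mxd4 was higher than in pluripotent lines, at a mean of 49.2 FPKM (3.68, adjusted p = 0.000452), as was Mlxip, and Mycl and Mlxipl were lower. MEFs had 41.0 FPKM of Mxd4, also above every MASC, ESC and iPS line.

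Of 28 genes of ribosome making and metabolism known as Myc targets, 17 were higher in MASCs than in SSCs, 1 was lower and 10 did not pass. The shares over all transcripts were 11.4% higher and 19.5% lower. The list median was 0.73, beside -0.01 over all transcripts. Odc1, the rate-limiting enzyme of polyamine synthesis, had means of 460 and 42.3 FPKM (3.44, SE 0.14, adjusted p = 3.21e-07), and Srm, spermidine synthase, had 182 and 41.7 (2.10, SE 0.07, adjusted p = 7.01e-08). The nucleolar genes Npm1 (1.32, adjusted p = 0.00144) and Ncl (0.98, adjusted p = 0.000806) were higher as well. Tert, the catalytic part of telomerase, was the 1 lower gene, at 3.21 and 10.1 FPKM (-1.41, adjusted p = 0.000212). Under quantile normalization 13 were higher and 3 lower, with rescaled FPKM 10 and 2, and without SSC line 3 and MASC line 1 15 and 1.

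In HSCs, with the highest Myc, 0 of the 28 were higher than in pluripotent lines, 22 were lower and 6 did not pass, with a median of -1.40 beside -0.003. The shares over all transcripts were 15.9% higher and 17.4% lower. Odc1 had a mean of 54.4 FPKM there (-2.91, adjusted p = 6.01e-08) and Npm1 of 337 (-2.32, adjusted p = 2.04e-05). Srm, at 139 FPKM, did not pass (-0.11, adjusted p = 0.618). Both comparisons contain the MASC lines. Without HSC culture 2, 18 were lower and 0 higher.

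**Figure D5:**
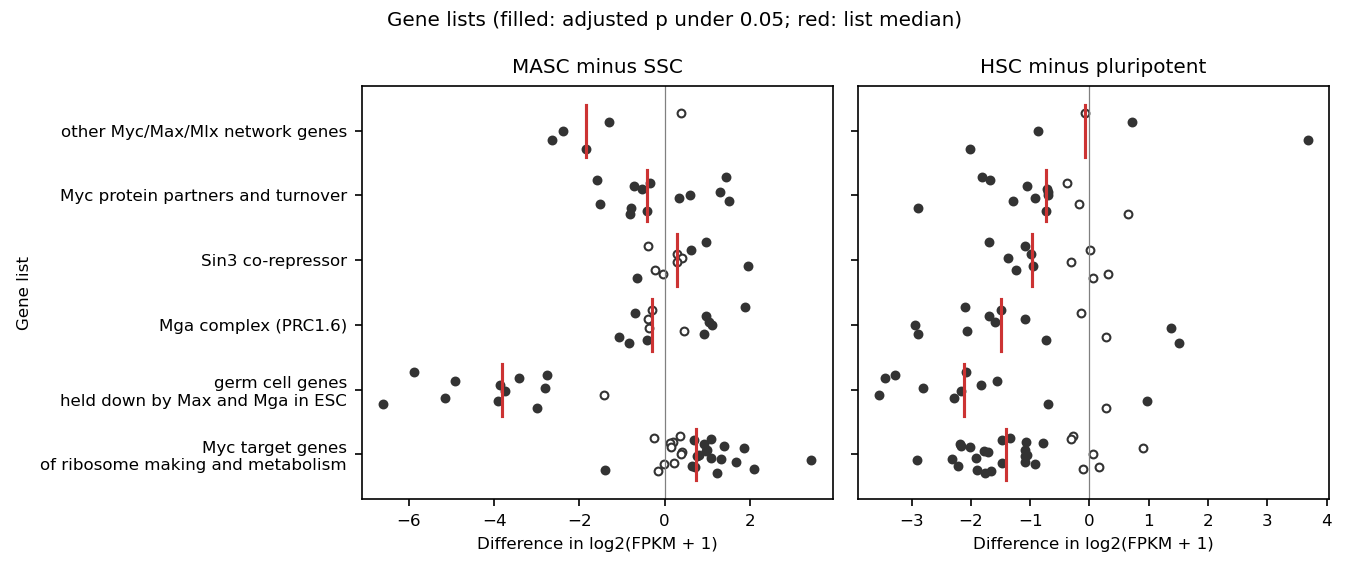
Difference in log2(FPKM + 1) of each gene of 6 lists, for MASCs against SSCs (left) and HSCs against pluripotent lines (right). Filled points passed an adjusted p of 0.05, and the red bar is the list median, which for the Myc targets is 0.73 on the left and -1.40 on the right.

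Of 13 measured genes for proteins that bind Myc or govern its stability, 5 were higher in MASCs and 8 lower, with a median of -0.42. Beside these counts, 11.4% of all transcripts were higher and 19.5% lower. Higher were Ruvbl2, a helicase subunit (1.51, adjusted p = 0.000221), its partner Ruvbl1 (0.34, adjusted p = 0.012), the acetyltransferase Kat5 (1.30, adjusted p = 0.000843) and Aurka, a kinase that stabilises the Mycn protein (1.43, adjusted p = 0.000133). Lower were Ep400 (-1.59, adjusted p = 0.000101) and Trrap (-1.51, adjusted p = 0.000289), which belong with Kat5, Ruvbl1 and Ruvbl2 to a histone acetyltransferase complex that Myc recruits, so that members of this complex were called in both directions. In HSCs 10 of the 13 were lower than in pluripotent lines and 0 higher, beside 17.4% and 15.9% of all transcripts.

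Of 10 genes of the Sin3 co-repressor, on which the Mxd proteins depend, 3 were higher in MASCs than in SSCs, 1 was lower and 6 did not pass, with a median of 0.29. Beside these counts, 11.4% of all transcripts were higher and 19.5% lower. The called share of this list did not exceed the 49.9% of transcripts with at least 1 FPKM in at least 2 samples. Sap30 had means of 56.0 and 13.8 FPKM (1.96, adjusted p = 4.15e-05), and the deacetylase Hdac1 163 and 82.9 (0.97, adjusted p = 3.98e-06), while Suds3 was lower (-0.64, adjusted p = 0.0202). The scaffold Sin3a did not pass (-0.24, adjusted p = 0.483). In HSCs 6 of the 10 were lower than in pluripotent lines, beside 17.4% of all transcripts.

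Of 13 genes of the Polycomb complex that holds Mga and Max, 5 were higher in MASCs than in SSCs, 4 lower and 4 did not pass, with a median of -0.30. Beside these counts, 11.4% of all transcripts were higher and 19.5% lower. Pcgf6, the subunit that defines this complex, had means of 44.1 and 20.0 FPKM (1.12, adjusted p = 0.0047), and Cbx1, a chromodomain protein, 127 and 33.7 (1.89, adjusted p = 2.66e-05). Tfdp1, the partner of E2f6 (-1.08, adjusted p = 0.0163), and Yaf2 (-0.83, adjusted p = 0.0173) were lower. In HSCs, where Mga was low, 9 of the 13 were lower than in pluripotent lines and 2 higher, Ring1 and Yaf2, with Pcgf6 at a mean of 4.36 FPKM (-2.95, adjusted p = 4.38e-06). The shares over all transcripts were 17.4% lower and 15.9% higher.

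Of 12 germ cell genes reported as held silent by Max and Mga in ESCs, 11 were lower in MASCs than in SSCs, 0 were higher and Sycp3 did not pass (-1.41, adjusted p = 0.163). Beside these counts, 19.5% of all transcripts were lower and 11.4% higher. The median was -3.80. Tex101, a surface protein of male germ cells, had means of 0.847 FPKM in MASCs and 176 in SSCs (-6.61, SE 0.20, adjusted p = 4.19e-08), and the RNA-binding Dazl had 3.93 and 275 (-5.88, SE 0.43, adjusted p = 8.71e-06). Not all of the 12 were silent in the pluripotent lines. Ddx4 had means of 12.8 FPKM in MASCs and 9.48 in ESCs, and Sycp3 had 10.5 and 22.4. Tex101, Dazl and Ddx4 are also among the spermatogonial markers above. In HSCs 10 of the 12 were lower than in pluripotent lines, or 6 without HSC culture 2, and 1, Tdrkh, was higher (0.97, adjusted p = 0.00702). The shares over all transcripts were 17.4% lower and 15.9% higher.

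Across the 17 samples, the genes whose log2(FPKM + 1) was most like that of a member were sought among 11841 genes with at least 5 FPKM in at least 2 samples. For Mycn they were Hnrnpdl (Pearson's r of 0.97), the DNA methyltransferase Dnmt3a (0.96) and the cyclin Ccnb1 (0.96). For Myc they were Rap2b (0.92) and the proton pump subunits Atp6v1e1 and Atp6v1d (0.90 each), for Mxd1 Cytip, Ssfa2 and Bmp2k (0.95, 0.95 and 0.94), and for Mxd3 Mrpl57, Smco4 and 1700003F12Rik (0.94, 0.89 and 0.89). These values describe 17 points of 6 cell types and carry no test, since lines of a cell type and the library depth are shared by all genes.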

How the data were processed

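RNA was sequenced from 17 mouse samples and 1 processed table per sample was used. The authors deposited FPKM, made with TopHat2 2.0.11 on mm9 without PCR duplicates or multiply mapped reads and with Cufflinks (version not given in the sources used here), upper-quartile and GC-normalized. The deposited coverage, a signal in reads per base, was used only to describe depth. Of 33262 rows per table, 601 further loci of a transcript were left out, and no row was filtered on its level. Values were analysed as log2(FPKM + 1) with limma 3.58.1 in R 4.3.3 (lmFit, eBayes without trend), tested on simulated data, with 12 samples (SSC, MASC, ESC) in 1 model and, for HSCs and iPS cells, all 17 samples. The MEF sample, alone in its group, got no test. Genes named were the 8 members, per list at most 2 called genes in each direction by the largest difference between MASCs and SSCs, and the 3 genes most like a member, while further list genes (Npm1, Ncl, Mycl, Mlxip, Mlx, Sin3a, Sycp3, Tdrkh, Ring1, Ddx4, Kat5, Ruvbl1) were named after their values were seen. The members and lists were chosen with earlier results of these data known. Of 14 listed Myc partners, 13 were found. Positions are on mm9, counted from 1. Alternatives were a pseudocount of 0.1, a filter for 1 FPKM in 2 samples, quantile normalization, rescaling to a sum of 1000000 over transcripts of at least 300 bases, sums per gene, a trend with robust estimation, replicate and strain blocks, the 17-sample fit and each line left out in turn. Leaving out SSC line 3 and MASC line 1 together, a log2 difference of at least 1 in the rule of the study's methods, and the recounts of the gene lists under other settings were added after seeing the data.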

Additional observations from a re-analysis of the deposited data

Results flagged for a closer look

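In the 4 SSC lines, the main Myc transcript of SSC line 3 stood apart from the others. It was listed at 0.00343 FPKM, and its gap to the next line was 0.982 of the whole range of the group. Of 16 groups tested in this way 1 was singled out, and chance gives about 1 in 20. The other Myc transcript, NM_001177353, was at 2.64 FPKM in that line, and the sum of both was 2.64, within the range of the other lines.

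For Mnt, both MASC lines of the Oct4-GFP strain were above both SSC lines of that strain, by 0.88 on the log2(FPKM + 1) scale, and both 129mix MASC lines were below the 129mix SSC line, at -0.14. The difference between the strains was not tested.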

How the results depend on the processing

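The number of the 8 genes called between MASCs and SSCs was 5 and became 2 (Max and Mxi1) with a replicate block, where Myc had 2.90 (adjusted p = 0.0533), Mycn 0.67 (0.241) and Mxd1 -0.59 (0.13) and 5945 transcripts were called in place of 10099. Between ESCs and SSCs the block left 3377 calls of 7000. With the block 8 of the 28 Myc targets were higher in MASCs and 1 lower, and with a strain block 12 and 1. The replicate numbers do not pair the lines: same-numbered SSC and MASC lines had correlations of their deviations between -0.225 and 0.185 over 4 pairs, and 0 of 4 SSC lines correlated best with its own number. Between iPS cells and ESCs the number called was 0 and became 1 (Mxi1) under quantile normalization. With lines left out in turn, 4 to 5 of the 8 genes were called between MASCs and SSCs, 2 to 3 between ESCs and SSCs, 4 to 6 between HSCs and pluripotent lines, and 0 in the other comparisons. With a strain block between HSCs and pluripotent lines, 5605 transcripts were called in place of 10886, Myc was called (4.02, adjusted p = 0.0184), and Mxd3 (0.32, adjusted p = 0.607) and Mxi1 (-0.56, adjusted p = 0.237) were not. SSC line 3 alone shares the strain of the HSCs, so the strain term of the HSCs rests on it. Its main Myc transcript, the one fitted, was listed at 0.00343 FPKM and its other Myc transcript at 2.64. The strain block was not run with the Myc transcripts summed. With the strain block between HSCs and pluripotent lines, 15 of the 28 Myc targets, 6 of the Polycomb complex and 3 of the Sin3 genes were lower. Myc was also called there with the filter (adjusted p = 0.0221), quantile normalization (0.0425), the trend (0.0463), and without ESC line 2 (0.0214) or MASC line 1 (0.0436). Myc between ESCs and SSCs was lost with a pseudocount of 0.1 (adjusted p = 0.0878), rescaling (0.0834), the strain block (0.0797), the replicate block (0.165) and without SSC line 3 and MASC line 1 (0.0507), and Mycn between MASCs and SSCs in the 17-sample fit (0.12). Mxd1 between ESCs and SSCs was called with rescaling (-0.93, adjusted p = 0.0186) and without SSC line 1 (-0.70, 0.0282). No called difference of the 8 genes changed its sign. The causes were not tested. Read counts were not among the values used, and for low transcripts the bounds of Cufflinks give the precision within a library: Mxd1 in iPS line 1 was at 0.692 FPKM with bounds of 0.593 and 0.791.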
